A study of Saccharomyces cerevisiae with 12 samples.

Results

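The comparison described here set 3 arrays of budding yeast, Saccharomyces cerevisiae, labelled as lacking both NUP60 and ADA2 against 3 arrays labelled as lacking ADA2 alone. These 6 arrays were chosen by their titles out of 12 in the series. The nup60 ada2 group was labelled MATa his3 leu2 met15 ura3, with NUP60 and ADA2 each replaced by KANR, the kanamycin resistance marker. The ada2 group was labelled with the same genotype and KANR in place of ADA2 only, so the absence of ADA2 is shared and the labelled difference is NUP60. A nup60 group, with KANR in place of NUP60, and a wild-type group without any deletion, each of 3 arrays, are used below where the effect of NUP60 loss is set beside its effect in cells that still have ADA2. All cells were haploids of one labelled mating type, grown at 30 °C in 50 mL of rich glucose medium (YEPD) and collected in mid-log phase, and each array was labelled a biological replicate. The labels do not say whether replicates came from separate isolates. Each group is a single strain, so loss of a gene and any other difference between strains cannot be told apart.

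Nup60 is a protein of the nuclear basket, the filaments on the inner face of the nuclear pore, where it anchors the Mlp filament proteins. The basket takes part in messenger RNA export and surveillance, in SUMO homeostasis and in the tethering of induced genes to the pore. Ada2 is a subunit of the SAGA coactivator, in which it works with the acetyltransferase Gcn5 on histone tails, and SAGA also binds pores through its export-linked subunits. The comparison asks which transcripts differ with the loss of Nup60 in cells that have no Ada2.

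All values are log2 intensities of the deposited probe set values, and a change is the mean of the nup60 ada2 arrays minus the mean of the ada2 arrays on that scale, with its standard error (SE). Changes were tested with limma over 5449 genes, and genes with a Benjamini-Hochberg adjusted p under 0.05 passed. Array medians lay between 11.26 and 11.27 in nup60 ada2 and between 11.21 and 11.23 in ada2. Background was set at 5.62, the level under which 95 % of probe sets for another yeast fell, and 105 to 106 genes per array were under it in nup60 ada2, against 126 to 134 in ada2. Array 3 of nup60 ada2 and array 1 of the wild type stood apart in the poly-A control spikes, at 9.14 and 8.95 against 6.74 to 7.99 on the other arrays. In these spikes all 3 nup60 ada2 arrays (7.39, 7.99 and 9.14) lay above all 3 ada2 arrays (6.89, 7.04 and 7.09). Across genes, arrays correlated at 0.9941 or more within nup60 ada2 and at 0.9987 or more within ada2. Arrays of the different groups correlated at 0.945 to 0.953. Precision is limited by having 3 arrays per group.

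NUP60 itself was read first. It stood at 6.02, 6.27 and 6.32 on the nup60 ada2 arrays, against 12.27, 12.23 and 12.19 on the ada2 arrays. All 3 nup60 ada2 arrays lay far under all 3 ada2 arrays, a change of -6.03 ± 0.091 (SE, limma adjusted p = 4.62e-12). ADA2 was below background in both groups, at 4.46, 4.51 and 4.21 in nup60 ada2 and at 4.40, 4.03 and 4.26 in ada2. The deleted genes were thus low on each array whose label names them. Of their chromosomal neighbours, UTP6, a component of the small subunit processome beside ADA2, fell by 0.21, and RPS17B, a ribosomal protein gene on its other side, fell by 0.14 (adjusted p = 0.00064 and 0.00362). Beside NUP60, TFC3 (a subunit of the polymerase III factor TFIIIC) had a change of -0.21 and ERP1 (a protein of secretory vesicles) one of 0.06, with adjusted p of 0.0752 and 0.21. TFC3 passed without nup60 ada2 array 3 (-0.27), without ada2 array 1 (-0.28) and without wild-type array 1, whereas the call of RPS17B was lost when all probe sets of a gene were averaged (0.0612).

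Other transcripts went against the labelled genotype of the nup60 ada2 arrays, and every result below carries these differences. URA3, the orotidine phosphate decarboxylase gene that the labels give as mutant in all strains, stood at 13.16, 12.50 and 12.65 on the nup60 ada2 arrays, against 4.48, 4.66 and 4.31 on the ada2 arrays. It was at least 142-fold higher in nup60 ada2, since the ada2 arrays were below background (adjusted p = 1.42e-11). HMRA1, the a1 gene of a cells, stood at 4.46, 4.26 and 4.42 in nup60 ada2 and at 11.28, 11.42 and 11.26 in ada2, at least 51.9-fold lower in nup60 ada2. HMLALPHA1, the alpha1 activator of alpha cells, was at 11.64, 11.85 and 11.71 in nup60 ada2, against 5.13, 5.14 and 4.79 in ada2, at least 69.3-fold higher in nup60 ada2. Silent copies of the mating-type genes share their sequence with the expressed locus, and the probe sets of HMLALPHA1 and HMRA2 are marked as matching several transcripts, so the locus of origin cannot be read from them. The arrays labelled nup60 ada2 therefore held the transcripts of alpha cells with URA3, and the ada2 arrays those of a cells without it. HIS3 (-0.11, adjusted p = 0.153) stood between 12.30 and 12.59 on the 6 arrays although all strains are labelled his3, and MET17, the gene of the met15 marker, was below background in both groups. LEU2 was low in both groups, at 6.04 to 6.22 in nup60 ada2 and at 6.59 to 6.84 in ada2, and fell by 0.57. The neighbours of URA3 on the chromosome had small differences, with GEA2, an exchange factor for Arf proteins, at -0.26 and TIM9, a mitochondrial import chaperone, at -0.14 (adjusted p = 0.0208 and 0.0503).

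**Figure D1:**
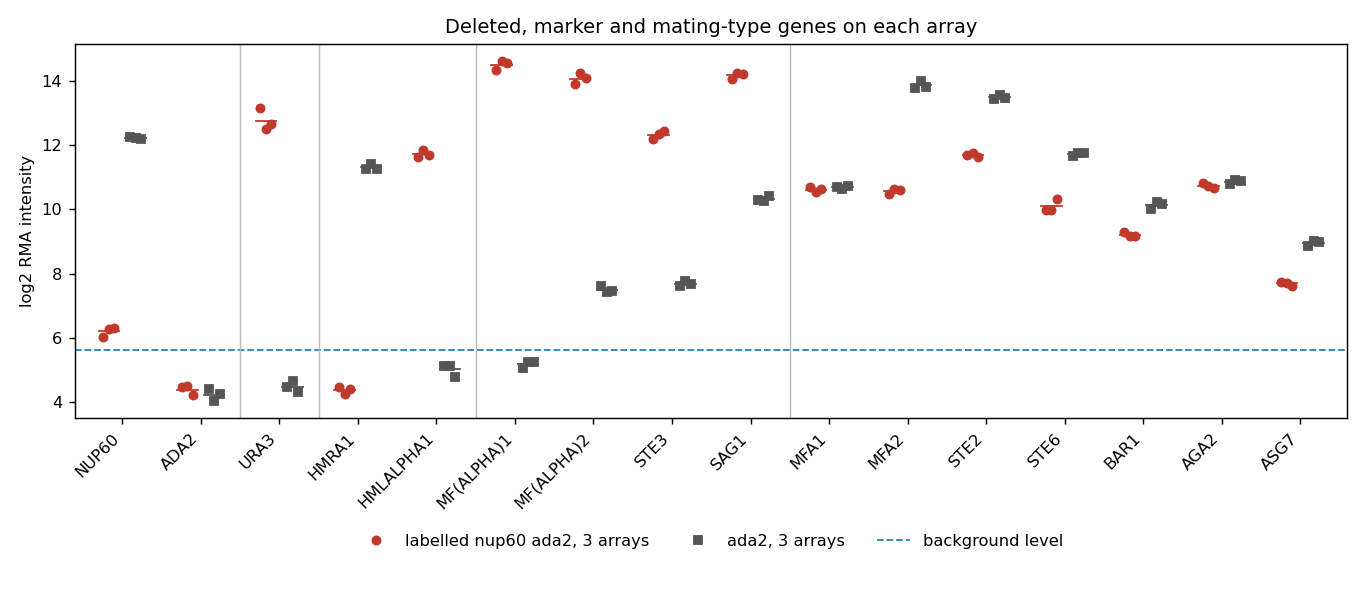
Log2 RMA intensity (y axis) of the deleted genes, URA3, mating-type genes and alpha- and a-specific genes (x axis), with a point per array, nup60 ada2 (circles) left of ada2 (squares), a bar at each group's mean and a dashed line at background. NUP60 and HMRA1 were low on all 3 nup60 ada2 arrays, and URA3, HMLALPHA1 and MF(ALPHA)1 were high on all 3 and below the background of 5.62 on the ada2 arrays.

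The genes of the mating system differed as well. All 4 alpha-specific genes measured rose, with a median change of 5.62, beside 35.2% of all genes tested that rose and 33.9% that fell. MF(ALPHA)1, which encodes the alpha-factor pheromone, stood at 14.36, 14.63 and 14.55 on the nup60 ada2 arrays, against 5.07, 5.24 and 5.26 on the ada2 arrays, at least 475-fold higher in nup60 ada2. The second alpha-factor gene, MF(ALPHA)2, rose by 6.59 ± 0.11. STE3, the receptor for a-factor, was at 12.19, 12.37 and 12.45 in nup60 ada2 and at 7.61, 7.77 and 7.67 in ada2. No array of one group reached the other, and STE3 rose by 4.65 ± 0.067. SAG1, the alpha-agglutinin of the cell surface, rose by 3.86 ± 0.088, and AFB1, the a-factor barrier protein, rose by 4.33 ± 0.098. For AFB1 the ada2 arrays were also low beside the other strains. Its means were 12.78 in nup60 ada2, 8.45 in ada2, 10.60 in nup60 and 10.89 in wild type. In bulk RNA, the share of cells of a mating type and the RNA per cell cannot be told apart.

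Of the 7 a-specific genes, 5 fell and none rose, with a median change of -1.27. MFA2, an a-factor gene, stood at 10.48, 10.63 and 10.61 in nup60 ada2, against 13.80, 13.99 and 13.82 in ada2, and fell by 3.30. STE2, the alpha-factor receptor, fell by 1.80, STE6, the a-factor exporter, by 1.64, and BAR1, the protease that degrades alpha-factor, by 0.92. ASG7, which inhibits pheromone signalling after mating, had a change of -1.27 that passed. These genes remained above background in nup60 ada2, with ASG7 the dimmest at 7.63 to 7.73. MFA1, the other a-factor gene, stood at 10.69, 10.55 and 10.63 in nup60 ada2 and at 10.70, 10.64 and 10.73 in ada2. Its groups overlapped (-0.07, adjusted p = 0.442), as did those of the agglutinin subunit gene AGA2 (-0.13, adjusted p = 0.195). For both genes the ada2 arrays were themselves low. MFA1 averaged 10.69 in ada2, against 13.81 in nup60 and 13.40 in wild type. AGA2 averaged 10.87 in ada2, against 12.92 and 12.32, and BAR1 averaged 10.14, against 13.13 and 13.07.

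Of 27 genes that pheromone induces, 20 rose and 1, the a-specific ASG7, fell, at a median change of 1.02. FUS1, a membrane protein needed for cell fusion, stood at 11.49, 11.59 and 11.72 in nup60 ada2, against 8.14, 8.24 and 8.02 in ada2. Every nup60 ada2 array was higher, and the change was 3.47 ± 0.094 (limma adjusted p = 3.06e-10), an 11.1-fold rise. For FUS1 the ada2 group was the one apart from the other strains, since the means were 11.60 in nup60 ada2, 8.13 in ada2, 10.85 in nup60 and 10.90 in wild type. PRM1, which acts in membrane fusion of mating cells, rose by 3.18 ± 0.11, PRM6 by 3.12 ± 0.19 and AGA1, the anchor of the agglutinin, by 3.02 ± 0.11. Among 12 genes specific to haploid cells 8 rose, including FAR1, an inhibitor of the G1 cyclin kinase (2.26 ± 0.12), SST2, the regulator that desensitizes the pheromone pathway (2.15 ± 0.083), and GPA1, its G protein alpha subunit (1.07 ± 0.044). The ada2 arrays were the low ones for FAR1, SST2 and GPA1, with means of 9.22, 9.70 and 11.76. Wild-type means were 11.99, 11.54 and 12.66, and nup60 means 11.65, 11.44 and 12.69. AXL1, a protease that matures a-factor, rose by 0.81. HO, the mating-type switching endonuclease, fell by 0.66, and RME1, a repressor of meiosis, by 0.11 (adjusted p = 0.0414), both chosen for mention after their values were seen. The call of RME1 was lost without nup60 ada2 array 1 or 2, ada2 array 2 or 3, nup60 array 3 or wild-type array 2.

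The Ty3 retrotransposon stood high beside the pheromone genes. YGR109W-A, which encodes its Gag protein, stood at 12.77, 12.74 and 12.85 in nup60 ada2 and at 6.69, 6.63 and 6.72 in ada2, a change of 6.11 ± 0.15. Its means in nup60 and wild type were 11.50 and 10.59, so the ada2 arrays were the low ones. Another pair of Ty3 reading frames, mentioned after their values were seen, rose by 2.20 (YGR109W-B) and 2.40 (YIL082W-A). The probe sets of YGR109W-A and YIL082W-A are marked as matching several transcripts, so the copy that gave the signal cannot be named.

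Since URA3 differed, the rest of the pyrimidine pathway was read gene by gene. Of 14 other genes of pyrimidine synthesis and uptake 10 fell and 2 rose, with a median of -0.49. URA1, the dihydroorotate dehydrogenase, stood at 13.45, 13.64 and 13.48 in nup60 ada2, against 14.63, 14.61 and 14.59 in ada2. Its groups did not overlap, and it fell by 1.09. FUR1, which salvages uracil, fell by 1.08, URA4 (dihydroorotase) by 0.70, URA2, which encodes the first enzyme of the pathway, by 0.64 and URA6 (uridylate kinase) by 0.54. The CTP synthase genes URA7 and URA8 fell by 0.47 and 0.50. URA10, the minor orotate phosphoribosyltransferase, rose by 0.98 and the uracil permease FUR4 by 0.47. URA5, the major orotate phosphoribosyltransferase, stood between 14.52 and 14.57 in nup60 ada2 and between 14.53 and 14.58 in ada2 (0.00 ± 0.032, adjusted p = 0.972).

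Across the genome the difference was broad. Of 5449 genes 3765 passed (69.1%), 1920 upward (35.2%) and 1845 downward (33.9%), and the median change of all genes was 0.0037. A change of at least 2-fold was seen in 286 genes upward (5.25%) and in 79 downward (1.45%), a split of 228 and 122 under quantile normalization. In 2050 genes (37.6%) all 3 nup60 ada2 arrays lay above all 3 ada2 arrays, and in 2012 (36.9%) below. Rises were the more frequent among dim genes. In the band of mean level from 6.5 to 8, 105 of 190 genes rose and 19 fell, with a median change of 0.50, whereas above 12, 461 of 1679 rose and 748 fell, with a median of -0.08. Counts for lists of bright or dim genes are therefore to be read with their level in mind. The probe sets of the other yeast, which measure no transcript of these cells, had a median difference of -0.085. The 16 nuclear chromosomes had medians between -0.04 and 0.06.

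**Figure D2:**
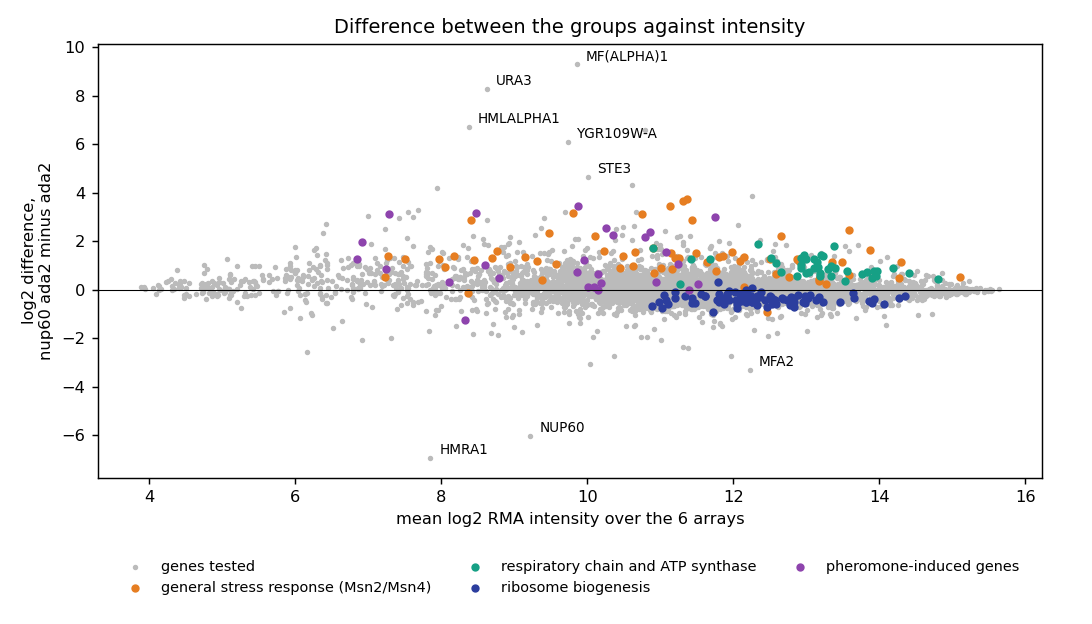
Change in log2 intensity (nup60 ada2 minus ada2, y axis) against the mean log2 level over the 6 arrays (x axis), one point per gene, coloured for stress, respiratory, ribosome biogenesis and pheromone-induced genes. Genes between 6.5 and 8 had a median change of 0.50 and genes above 12 one of -0.08.

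The largest rises outside the mating system, URA3 and Ty3 were those of YIR042C, YGP1, DDR2, GPH1, NDJ1 and HUG1. YIR042C, a gene with no assigned function, stood at 10.16, 10.12 and 9.82 on the nup60 ada2 arrays, against 5.46, 5.58 and 6.49 on the ada2 arrays. Its ada2 arrays 1 and 2 were below background and the third was above, and the change was 4.19 ± 0.26. YGP1, a secreted cell wall glycoprotein induced by nutrient limitation, was at 13.42, 13.27 and 12.99 in nup60 ada2, against 9.46, 9.28 and 9.76 in ada2 (3.73 ± 0.12). Its mean of 13.23 in nup60 ada2 lay near the wild-type mean of 13.41, and that of the nup60 arrays was 14.82. NDJ1, a telomere protein of meiotic prophase, stood at 9.29, 9.46 and 9.21 in nup60 ada2 and at 5.77, 6.35 and 5.97 in ada2, a 9.79-fold rise.

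Beside HMRA1, NUP60 and MFA2, the largest falls were those of ARO10, FET4 and HXT1. ARO10, a decarboxylase of aromatic amino acid breakdown, stood at 8.44, 8.47 and 8.57 in nup60 ada2, against 11.38, 11.61 and 11.72 in ada2, and was 8.44-fold lower (limma adjusted p = 1.85e-09). FET4, the low-affinity iron transporter, was at 9.02, 9.09 and 8.86 in nup60 ada2 and at 11.68, 11.77 and 11.77 in ada2 (-2.75 ± 0.12). HXT1, the low-affinity glucose transporter, was at 10.69, 10.70 and 10.38 in nup60 ada2 and at 13.33, 13.36 and 13.31 in ada2 (-2.74 ± 0.10). The groups of each lay apart, which the rule that chose these genes required. TIR1, a cell wall mannoprotein, fell by 2.42, and PRY3, a sterol-binding protein of the cell wall, fell by 2.36 ± 0.040. ARG3, ornithine carbamoyltransferase, fell by 2.09 ± 0.099, and DIP5, the permease for glutamate and aspartate, by 1.94 ± 0.16. PHM6, a gene of the phosphate regulon, fell by 2.06, and YER187W (-1.98) and YIL014C-A (-1.95), without an assigned function, were also lower.

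Stress genes rose nearly as a whole. Of 63 targets of the general stress activators Msn2 and Msn4, 60 rose and 1 fell, with a median change of 1.25, and 42 of them rose at least 2-fold. DDR2, a small stress protein, stood at 13.28, 13.16 and 12.98 in nup60 ada2, against 9.50, 9.37 and 9.54 in ada2. The groups were far apart, and DDR2 was 12.7-fold higher in nup60 ada2 (3.67 ± 0.088, limma adjusted p = 1.1e-10). GPH1, glycogen phosphorylase, was at 12.75, 12.81 and 12.98 in nup60 ada2 and at 9.25, 9.50 and 9.46 in ada2 (3.44 ± 0.12). RIM4, an RNA-binding regulator of meiosis that the list also holds, rose by 3.17 ± 0.090. The single member that fell was GRE2, a methylglyoxal reductase (-0.92), and TPS3 and FMP45 had changes of 0.11 and -0.13 that did not pass. GRE2, TPS3 and FMP45 were singled out after their values were seen, and 2 members fell without nup60 ada2 array 1.

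Reserve carbohydrate genes belong to the same programme in part. Of 16 glycogen genes 14 rose and 1, the cyclin PCL10, fell (-0.20), with a median of 1.32. GAC1, which targets a protein phosphatase to glycogen synthase, was 8.01-fold higher in nup60 ada2. GIP2, of the same phosphatase family, rose by 2.49 ± 0.20 and SGA1, a glucoamylase, by 1.59. GAC1 was dim in ada2, at 5.99 to 6.21, and clearly above background in nup60 ada2, at 8.95 to 9.23. Of 10 trehalose genes 8 rose, on both the synthetic and the degrading side. TSL1, a subunit of the trehalose synthase, rose by 1.28, the trehalases NTH1 and ATH1 by 1.19 and 0.99, and PGM2, the main phosphoglucomutase, by 0.91.

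Among 29 chaperone and other targets of the heat shock factor Hsf1, 20 rose and 4 fell, with a median of 0.42. HSP26, a small heat shock protein, stood at 14.84, 14.82 and 14.77 in nup60 ada2, against 12.36, 12.45 and 12.29 in ada2, a 5.46-fold rise. HSP42 rose by 2.22, the Hsp70 gene SSA3 by 2.20 and the polyubiquitin gene UBI4 by 1.84. The 4 that fell were SSA2, YDJ1, STI1 and HCH1, each by 0.11 to 0.15, as seen after the values were known. Under cyclic loess normalization only 1 fell. In the proteasome 22 of 36 rose, at a small median of 0.15, and RPN4, the activator of proteasome genes, rose by 1.02 ± 0.037.

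The DNA damage response also stood higher. Of 26 genes 19 rose and 2 fell, with a median of 0.32. HUG1, an inhibitor of ribonucleotide reductase that damage induces strongly, stood at 12.35, 12.26 and 12.20 in nup60 ada2, against 9.01, 9.03 and 9.14 in ada2. Arrays within a group differed little, and HUG1 was 9.26-fold higher in nup60 ada2. RNR3, the inducible large subunit of ribonucleotide reductase, rose by 1.42 ± 0.069 and PLM2, a transcription factor gene of the damage response, by 1.22 ± 0.061. RNR1, the constitutive large subunit, had a change of 0.07 that did not pass, and the 2 falls were RAD23 (-0.57) and DIF1 (-0.25), all chosen after their values were seen. Leaving out any ada2 array, or nup60 array 1 or 2, left 1 fall. Replication genes went mainly the other way, with 23 of 40 lower and 8 higher at a median of -0.18, led by the clamp loader gene RFC5 (-0.62) and the origin recognition genes ORC2 (-0.56) and ORC1 (-0.41).

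**Figure D3:**
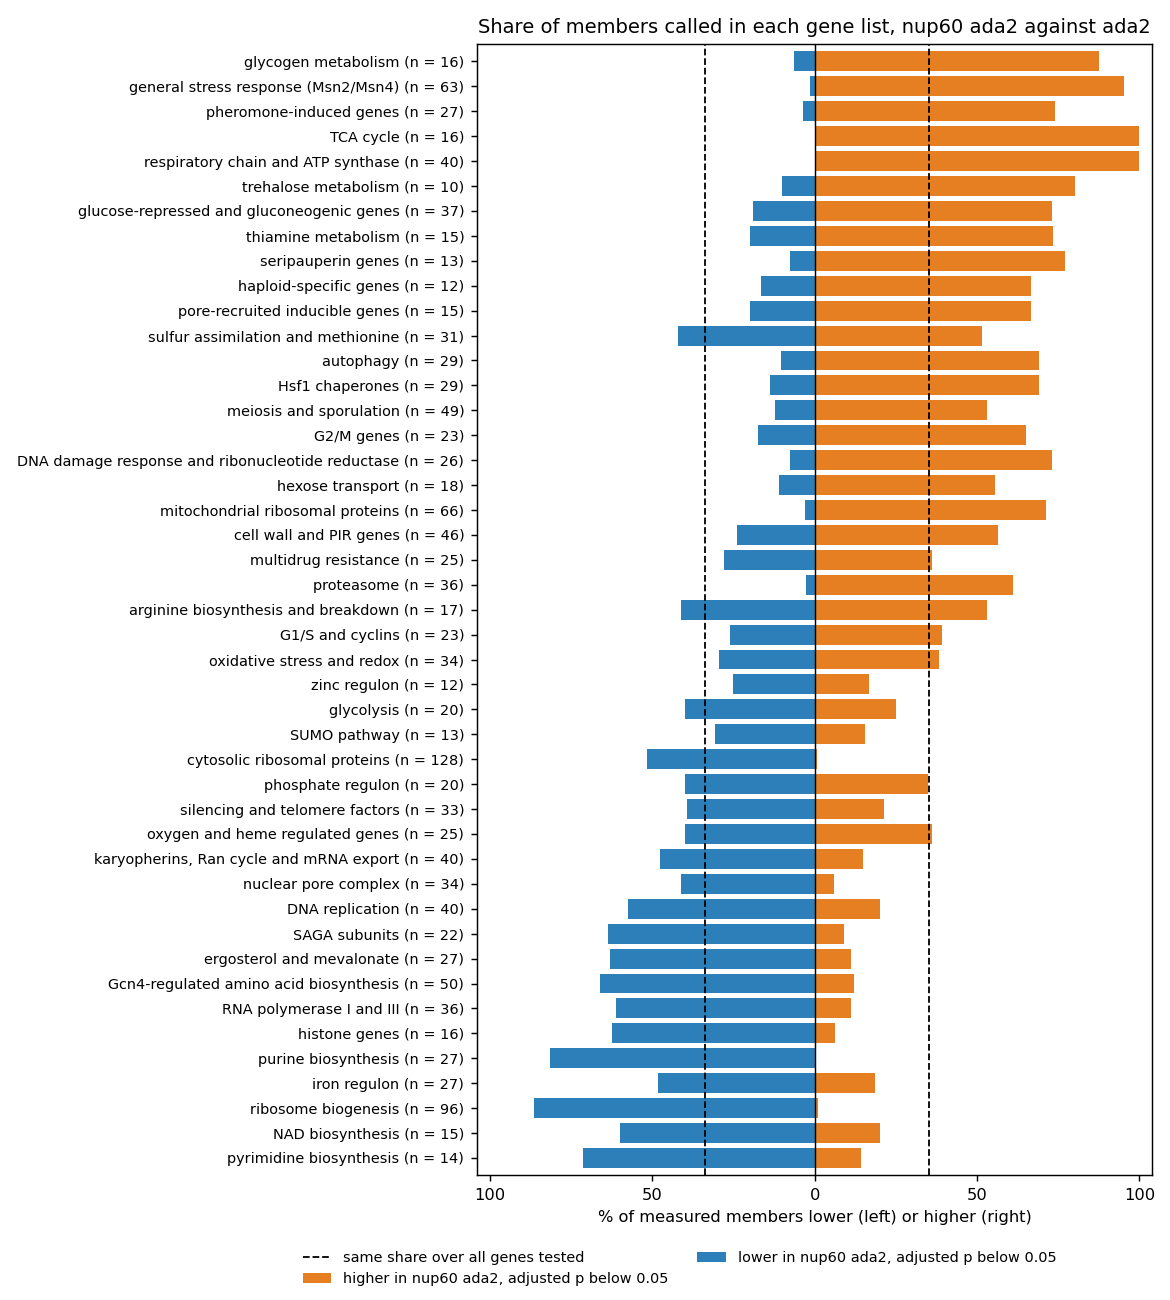
Share of measured members that rose or fell in nup60 ada2 against ada2, in percent (x axis), for each gene list with at least 10 measured members (y axis), ordered by median change. Dashed lines mark the shares over all genes tested, 35.2% for rises and 33.9% for falls, and the respiratory chain (40 of 40) and TCA cycle (16 of 16) lists lie wholly on the side of rises.

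Respiratory metabolism was higher throughout. All 16 genes of the TCA cycle rose, with a median change of 0.97, and all 40 genes of the respiratory chain and ATP synthase rose, with a median of 0.88. HAP4, the activating subunit of the complex that turns on respiratory genes, stood at 13.29, 13.39 and 13.52 in nup60 ada2, against 10.54, 10.83 and 10.82 in ada2. It was 6.35-fold higher in nup60 ada2 (2.67 ± 0.10, limma adjusted p = 3.6e-09). SDH2, the iron-sulfur subunit of succinate dehydrogenase and a member of both lists, was at 13.34, 13.28 and 13.20 in nup60 ada2 and at 11.27, 11.50 and 11.42 in ada2. CIT1, the mitochondrial citrate synthase, rose by 1.50 ± 0.052 and ACO1, aconitase, by 1.34 ± 0.12. The external NADH dehydrogenase NDE1 rose by 1.80 ± 0.055, the cytochrome c isoform CYC7 by 1.73 ± 0.082 and cytochrome c1 (CYT1) by 1.44 ± 0.060. Mitochondrial ribosomal proteins rose by less, 47 of 66 with a median of 0.24, RSM7 (0.98) and MRPL16 (0.88) leading. MRPL19 and MRPL38, picked out afterwards, were the 2 that fell (-0.21 and -0.39).

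Genes repressed by glucose rose in 27 of 37 cases and fell in 7, with a median of 0.69. POT1, the thiolase of fatty acid breakdown, averaged 8.89 ± 0.12 in nup60 ada2 and 5.96 ± 0.038 in ada2 (SD, n = 3 each), a change of 2.94 ± 0.12 (SE). NDE2 rose by 1.84 and the carnitine carrier CRC1 by 1.81. Of 18 genes of hexose transport 10 rose and 2 fell (6 and 4 under quantile normalization). HXT4 rose by 1.58 ± 0.037, as did the high-affinity transporter gene HXT7 (1.58 ± 0.052), whose probe set matches several transcripts, and MTH1, a repressor of transporter genes in low glucose, rose by 1.35. The falls were HXT1, which serves growth in high glucose, and HXT3 (-0.12, named afterwards), and 1 fell without ada2 array 3. In glycolysis 5 of 20 rose (25%) and 8 fell (40%), beside 35.2% and 33.9% of all genes tested. The median was -0.05, and 7 rose and 7 fell under cyclic loess. HXK1, a hexokinase, stood at 14.68, 14.73 and 14.69 in nup60 ada2, against 12.99, 13.08 and 13.08 in ada2 (1.65 ± 0.042), and the minor pyruvate kinase PYK2 rose by 0.70, while the phosphofructokinase genes PFK1 and PFK2 fell by 0.64 and 0.63. The other 3 rises were GLK1 (0.46), TDH1 (0.39) and ENO1 (0.26), listed after their values were seen.

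**Figure D4:**
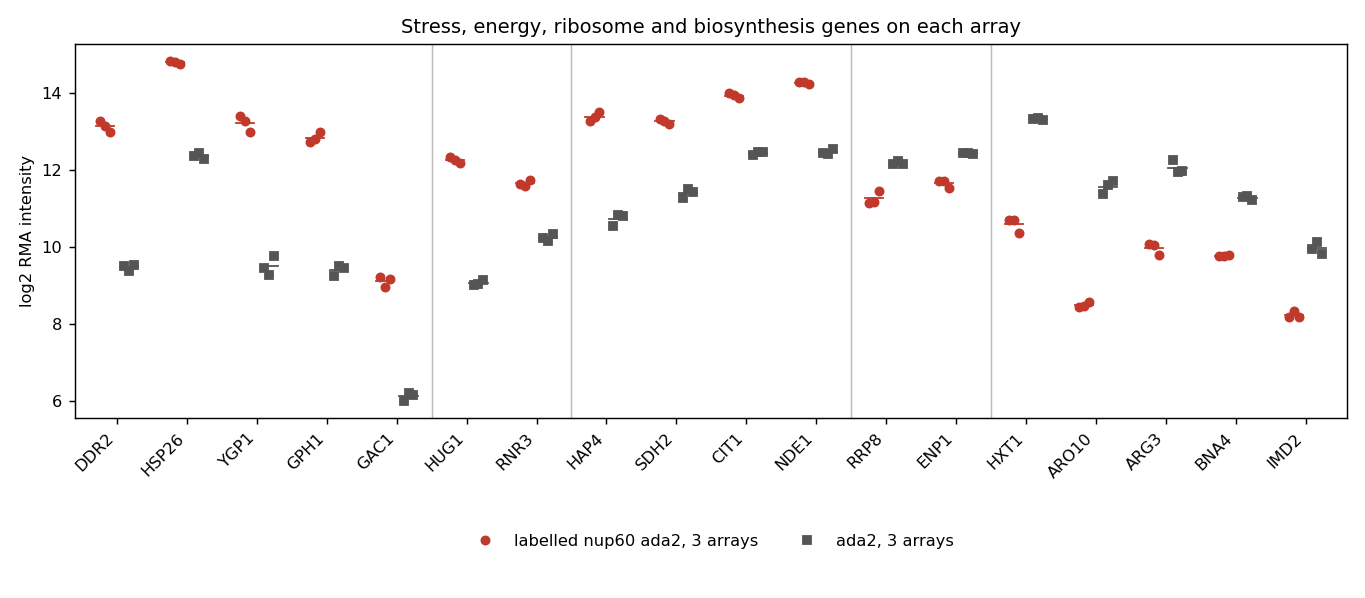
Log2 RMA intensity (y axis) of stress, damage, respiratory, ribosome and biosynthetic genes (x axis) on each array, with nup60 ada2 arrays (circles) left of ada2 arrays (squares) and a bar at each group's mean. DDR2, HUG1, HAP4 and SDH2 lay higher on all 3 nup60 ada2 arrays than on any ada2 array, and RRP8, HXT1, ARO10 and BNA4 lay lower on all 3.

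Genes for making ribosomes were lower. Of 96 ribosome biogenesis genes 83 fell and 1 rose, with a median of -0.40, a modest size spread over nearly the whole list. RRP8, an rRNA methyltransferase, stood at 11.15, 11.18 and 11.47 in nup60 ada2, against 12.15, 12.25 and 12.15 in ada2 (-0.92 ± 0.083). ENP1 and MPP10 of the small subunit processome fell by 0.78 and 0.74, and the RNA helicase DBP2 by 0.73. The 1 rise, noted after the fact, was ESF1 (0.30). Polymerase I and III genes fell in 22 of 36 cases and rose in 4, led downward by RPC31 (-0.68) and RPC17 (-0.59), while RRN7, a polymerase I initiation factor, rose by 0.65. For the 128 cytosolic ribosomal protein genes the median was -0.08, with 66 lower and 1 higher. That count depended on scaling, with 99 lower and 1 higher under median centring. Quantile normalization gave 52 lower and 2 higher, and cyclic loess 41 lower and 7 higher. RPS9A was an exception in size, at 12.56, 12.72 and 12.42 in nup60 ada2 and at 13.70, 13.76 and 13.67 in ada2 (-1.14 ± 0.072). RPL41A fell by 1.12 ± 0.22, on a probe set that matches several transcripts.

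Amino acid genes under the activator Gcn4 fell in 33 of 50 cases and rose in 6, with a median of -0.21. ARG3 was at 10.07, 10.06 and 9.78 in nup60 ada2, against 12.25, 11.95 and 11.97 in ada2. ARG1, argininosuccinate synthetase, was at 12.17, 12.17 and 12.11 in nup60 ada2 and at 14.01, 13.73 and 13.88 in ada2 (-1.72 ± 0.070). For both genes the ada2 arrays were the high ones. ARG3 averaged 9.26 in nup60 and 8.85 in wild type, and ARG1 averaged 11.16 and 11.41. LYS20, homocitrate synthase, fell by 1.18, while LEU1, isopropylmalate isomerase, rose by 1.38 ± 0.11. Arginine genes as a whole divided into 9 rises and 7 falls of 17, with genes of breakdown among the rises. PUT1, proline oxidase, stood at 12.04, 11.91 and 11.94 in nup60 ada2 and at 9.38, 9.26 and 9.34 in ada2, a 6.24-fold rise, and CAR2, ornithine transaminase, rose by 0.93.

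Nucleotide and cofactor genes moved in separate directions. Purine genes fell in 22 of 27 cases and none rose, with a median of -0.31. Without nup60 ada2 array 3 and wild-type array 1, 23 fell and 2 rose. ADE17, which makes IMP, fell by 1.21 ± 0.051, IMD3, an IMP dehydrogenase, by 0.95 ± 0.054 and FCY21, a member of the purine-cytosine permease family, by 1.89 ± 0.075. IMD2 fell by 1.74, on a probe set that matches several transcripts. NAD genes fell in 9 of 15 cases, at a median of -0.45. BNA4, kynurenine 3-monooxygenase, was at 9.77, 9.78 and 9.78 in nup60 ada2, against 11.30, 11.32 and 11.23 in ada2, and BNA5, kynureninase, and the nicotinic acid transporter TNA1 fell by 1.15 and 1.54. PNC1, the nicotinamidase of the salvage pathway, rose by 1.14. BNA2 and BNA3, named afterwards, made up the other rises (0.53 and 0.33).

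Thiamine genes rose in 11 of 15 cases with a median of 0.57. PHO3, the thiamine-repressible acid phosphatase, rose by 1.66 and the thiamine transporter THI7 by 1.37, whereas THI4, the thiazole synthase, fell by 0.90. THI73 (-0.52) and THI80 (-0.23), named after their values were seen, completed the falls. Sulfur genes were split into 16 rises and 13 falls of 31. MET28 and MET32, transcription factors of the pathway, rose by 1.54 and 1.34, ATP sulfurylase (MET3) by 0.92, and MET22, a phosphatase for sulfated nucleotides, fell by 1.04.

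Of 27 genes of the iron regulon 13 fell and 5 rose, with a median of -0.31. TIS11, which destabilizes messenger RNAs in iron deficiency, stood at 9.95, 9.77 and 9.76 in nup60 ada2, against 11.91, 11.69 and 11.78 in ada2. FIT3, a cell wall mannoprotein that retains iron, fell by 1.46 ± 0.21. FRE5, of the ferric reductase family, was at 4.78, 4.99 and 4.84 in nup60 ada2, below background, and at 7.35, 7.53 and 7.44 in ada2, at least 3.54-fold lower in nup60 ada2. The rises were FRE3, FRE6, ISU1, HMX1 and CCC1, at 0.21 to 0.41, picked afterwards. They numbered 3 without nup60 ada2 array 3 and 2 without ada2 array 2. In the zinc regulon 3 of 12 fell and 2 rose, with a median of -0.03 (3 and 3 under cyclic loess, with a median of 0.02). The falls were ZRT1, FET4 and IZH1 (-0.23, named afterwards). ZRT1, the high-affinity zinc transporter, fell by 1.31, and ZAP1, the activator of zinc genes, rose by 0.74 ± 0.11. ADH4 rose by 0.27, a call lost without nup60 ada2 array 1 or 2 or ada2 array 1 (adjusted p = 0.0686, 0.0695 and 0.0617).

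In the phosphate regulon 7 of 20 rose (35%) and 8 fell (40%), near the 35.2% and 33.9% of all genes tested. PHM8, a phosphatase, rose by 2.88 ± 0.13, and VTC2, of the polyphosphate polymerase complex, fell by 0.61. SPL2 rose by 0.74, a call lost under quantile normalization (adjusted p = 0.163). Sterol genes fell in 17 of 27 cases, with a median of -0.19, and both sterol transcription factors were lower, UPC2 by 0.73 and ECM22 by 0.61. Of 25 genes under oxygen and heme control 9 rose (36%) and 10 fell (40%), again near the shares over all genes tested. ANB1, the hypoxic form of a translation factor, stood at 11.13, 11.24 and 10.91 in nup60 ada2, against 12.48, 12.72 and 12.56 in ada2 (-1.49 ± 0.096). Cell wall genes rose in 26 of 46 cases (56.5%) and fell in 11 (23.9%). PIR3, a structural mannoprotein, was at 11.46, 11.31 and 11.13 in nup60 ada2 and at 8.08, 8.21 and 7.99 in ada2 (3.21 ± 0.086). GSC2, the stress-induced glucan synthase subunit, rose by 1.84 ± 0.053, the surface protease YPS3 by 1.48, and EGT2, which acts after cytokinesis, fell by 1.03.

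Next came the machinery to which Nup60 and Ada2 belong. Of 34 nuclear pore genes, a list that holds NUP60, 14 fell (41.2%) and 2 rose (5.88%), beside 33.9% and 35.2% of all genes tested. The median was -0.13, and 9 fell without ada2 array 3. MLP1, the basket filament that Nup60 anchors, stood at 11.11, 11.06 and 11.41 in nup60 ada2, against 11.83, 11.73 and 11.77 in ada2 (-0.58 ± 0.076). POM152, of the membrane ring, and NUP53 each fell by 0.46. Rises were seen for NUP159 (0.28) and ASM4 (0.16), named after their values were seen. In transport and messenger RNA export 19 of 40 fell (47.5%) and 6 rose (15%). GSP2, the second Ran gene, stood at 13.81, 13.78 and 13.75 in nup60 ada2, against 12.34, 12.37 and 12.34 in ada2 (1.43 ± 0.034, limma adjusted p = 9.46e-11). NAB2, the poly-A binding protein that meets the basket on export, rose by 0.61 ± 0.037, and YRA1, the export adaptor, by 0.60 ± 0.038. KAP122, an importin of the beta family, fell by 0.56.

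SAGA genes fell in 14 of 22 cases (63.6%) and rose in 2 (9.09%), with a median of -0.19, beside 33.9% and 35.2% of all genes tested. GCN5, the acetyltransferase itself, stood at 10.98, 10.96 and 10.72 in nup60 ada2, against 11.46, 11.51 and 11.44 in ada2 (-0.58 ± 0.073). TAF6 fell by 0.61 and SPT8 by 0.55. Both rises, AHC1 (0.58) and AHC2 (0.30), were subunits of the smaller ADA complex, and AHC2 was noticed after the values were seen. There were 4 rises without both arrays that stood apart. The SUMO conjugating enzyme gene UBC9 fell by 0.69, the ligase gene NFI1 fell by 0.38, and the SUMO protease ULP2 rose by 0.45. SLX8, of the SUMO-targeted ubiquitin ligase, rose by 0.37, a call lost under quantile normalization (adjusted p = 0.0506). Among silencing and telomere factors 13 of 33 fell (39.4%) and 7 rose (21.2%), beside 33.9% and 35.2% of all genes tested. DOT1, a histone H3 methyltransferase that acts in telomeric silencing, was at 10.37, 10.47 and 10.40 in nup60 ada2 and at 11.31, 11.36 and 11.34 in ada2 (-0.93 ± 0.043), while ABF1 and RAP1 fell by 0.79 and 0.71. Of 16 histone genes and their regulators 10 fell, HTB2 by 0.71 and the variant HTZ1 by 0.52, and 1, the centromeric CSE4, rose (0.28, named afterwards). Without nup60 ada2 array 1, or without wild-type array 1 or 3, 2 rose.

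Cell cycle genes moved both ways. In G1 and at the start of S phase 9 of 23 rose (39.1%) and 6 fell (26.1%), near the 35.2% and 33.9% of all genes tested. MSB2, a mucin sensor, rose by 1.16, the G1 cyclin CLN3 by 0.94 and the S phase cyclin CLB6 by 0.85. In the G2 and M phase list 15 of 23 rose and 4 fell, with a median of 0.34. The mitotic exit gene SPO12 stood at 12.78, 12.71 and 12.62 in nup60 ada2 and at 11.46, 11.49 and 11.44 in ada2 (1.24 ± 0.053), and the mitotic cyclin CLB2 rose by 0.84. The falls were CLB1, CLB3, FKH1 and FKH2, at -0.23 to -0.37, listed afterwards.

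Genes of meiosis, largely silent in growing haploid cells, rose in 26 of 49 cases and fell in 6, with a median of 0.36. Under cyclic loess 17 rose and 13 fell (median 0.10), and under quantile normalization 18 rose and 16 fell, with a median of the opposite sign (-0.08). IME2, the meiotic kinase, stood at 10.40, 10.34 and 10.47 in nup60 ada2, against 8.07, 8.27 and 8.17 in ada2 (2.23 ± 0.13), DIT1 of the spore wall rose by 1.62, and the recombinase DMC1 rose by 1.61. Autophagy genes rose in 20 of 29 cases, at a median of 0.45. ATG8, the ubiquitin-like protein of the autophagosome, was at 12.67, 12.57 and 12.58 in nup60 ada2 and at 10.99, 11.17 and 11.09 in ada2 (1.52 ± 0.055). ATG10, a conjugating enzyme, fell by 1.06. ATG18 and ATG27 (-0.33 and -0.30), noted later, were the other falls.

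Genes known to move to the pore when induced rose in 10 of 15 cases (66.7%) and fell in 3 (20%), with a median of 0.48. Over all genes tested 35.2% rose and 33.9% fell. Under quantile normalization 9 rose and 5 fell (median 0.13), and under cyclic loess 8 rose and 4 fell (median 0.17). The list spans several of the groups above. PRM1, HXK1, CTT1, the cytosolic catalase (1.40 ± 0.088), and GAL80, the inhibitor of the galactose activator (1.17 ± 0.038), rose most. The 3 that fell, GAL10 (-0.71), SUC2 (-0.35) and TSA2 (-0.20), were named after their values were seen. Seripauperin genes, a subtelomeric family of near-identical copies, rose in 10 of 13 cases, but 1 rose once probe sets that match several transcripts were left out. PAU5, on a probe set of its own, stood at 9.51, 9.40 and 9.64 in nup60 ada2 and at 8.44, 8.59 and 8.54 in ada2. Drug resistance genes (9 of 25 higher, 7 lower) and redox genes (13 of 34 higher, 10 lower) were divided. Their shares, 36% and 28% for drug resistance and 38.2% and 29.4% for redox, lay near the 35.2% and 33.9% of all genes tested. The median of each list changed sign under quantile normalization (drug resistance -0.03, beside 0.16, and redox -0.04, beside 0.05). PDR12, a weak-acid exporter, rose by 1.06 and the amino acid exporter AQR1 fell by 0.87, while the oxidoreductase OYE3 rose by 1.42. Without ada2 array 2 or ada2 array 3, 6 redox genes fell.

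The effect of losing NUP60 was then set beside its effect in cells with ADA2. In nup60 against wild type 2798 genes passed (51.3%), 1369 upward (25.1%) and 1429 downward (26.2%), and these 6 arrays are separate from those compared above. Of its 1369 rises 1102 also rose in nup60 ada2 against ada2, which is 80.5% of the rises in nup60 and 57.4% of the 1920 rises in nup60 ada2, and 69 fell. Of its 1429 falls 1020 also fell, 71.4% of the falls in nup60 and 55.3% of the falls in nup60 ada2, and 57 rose. Without nup60 ada2 array 3 and wild-type array 1 the shared rises made 86.1% and 65.1% of each list. A change of at least 2-fold upward was seen for 142 genes in nup60 (2.61%), of which 139 rose in nup60 ada2, 105 of them at least 2-fold.

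The difference between both effects, the interaction, passed in 2134 genes (39.2%), 1124 upward (20.6%) and 1010 downward (18.5%), and was at least 2-fold in 85 upward (1.56%) and 64 downward (1.17%). A positive value means that the change in nup60 ada2 against ada2 was higher than that in nup60 against wild type. The strain difference in mating-type and URA3 transcripts enters this contrast for every gene and cannot be told apart from the absence of ADA2. The ranking was led upward by MF(ALPHA)1 at 9.16, URA3 at 8.50, HMLALPHA1 at 6.57, MF(ALPHA)2 at 6.53 and YGR109W-A at 5.20, and downward by HMRA1 at -6.65 and MFA2 at -3.51. URA3 and the mating-type and pheromone genes among them are those by which the strain departs from its label, and that departure and the NUP60 deletion cannot be told apart here. For YGR109W-A, a Ty3 gene, the ada2 arrays were the low ones. ARG3, ARO10 and FMP48 followed downward, at -2.50, -2.42 and -2.38. For FMP48 the 2 effects were opposite in sign, with a fall of 1.46 in nup60 ada2 and a change of 0.92 in nup60. Its ada2 arrays were the high ones, with means of 8.57 in nup60 ada2, 10.04 in ada2, 8.95 in nup60 and 8.03 in wild type. The same held for ARG3, at 9.97, 12.06, 9.26 and 8.85 in that order. For ARO10 the ada2 mean of 11.57 lay near the wild-type mean of 11.44. All 7 a-specific genes had a negative interaction and 18 of 27 pheromone-induced genes a positive one. Of the a-specific genes, MFA1 and AGA2 had no called change in nup60 ada2 against ada2 (-0.07 and -0.13). Both rose in nup60 against wild type (0.41 and 0.60).

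Stress genes were higher in both comparisons. In the general stress list 61 of 63 rose in nup60 against wild type at a median of 1.41, beside the median of 1.25 in nup60 ada2. The interaction passed downward in 30 of the 63 members and upward in 14, beside 18.5% and 20.6% of all genes tested. DDR2 rose by 3.67 in nup60 ada2 and by 3.79 in nup60, and its interaction of -0.12 did not pass (adjusted p = 0.456). HUG1 rose by 3.21 in nup60 ada2 and by 2.99 in nup60, with an interaction of 0.22 ± 0.10 (adjusted p = 0.116). HSP26 averaged 14.81 in nup60 ada2 and 12.36 in ada2, beside 14.06 in nup60 and 10.67 in wild type. Its change was thus smaller in nup60 ada2 against ada2 than in nup60 against wild type, with an interaction of -0.94 (limma adjusted p = 1.42e-05). The change of PGM2 was also the smaller there, with an interaction of -1.12. GSP2 rose by 1.43 in both backgrounds, and its interaction was 0.00 ± 0.048.

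Respiratory genes also rose in both comparisons, but their interactions were mainly upward. In nup60 against wild type, 39 of the 40 genes of the respiratory chain and ATP synthase rose. The interaction passed upward in 35 of 40 genes of the respiratory chain and ATP synthase and downward in 2, with list medians of 0.88 in nup60 ada2 against ada2 and 0.35 in nup60 against wild type. Without nup60 ada2 array 3 and wild-type array 1 it passed upward in 38. In the TCA cycle it passed upward in 11 of 16 genes and downward in none, with medians of 0.97 and 0.46. HAP4 averaged 13.40 in nup60 ada2 and 10.73 in ada2, and 11.77 in nup60 and 10.70 in wild type, so its interaction was 1.60 (adjusted p = 1.93e-05). NDE1 (1.29) and ACO1 (1.19) had interactions of similar size, and CYC7 ran the other way (-0.89). Other lists with many interactions were NAD synthesis (10 of 15 downward), thiamine (9 of 15 upward), iron (14 of 27 downward) and purines (13 of 27 downward). Over all genes tested the interaction passed downward in 18.5% and upward in 20.6%. For ribosome biogenesis 85 of 96 genes fell in nup60, beside 83 in nup60 ada2, and the interaction passed in 29 downward and 3 upward. It passed downward in 42 without both arrays that stood apart.

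**Figure D5:**
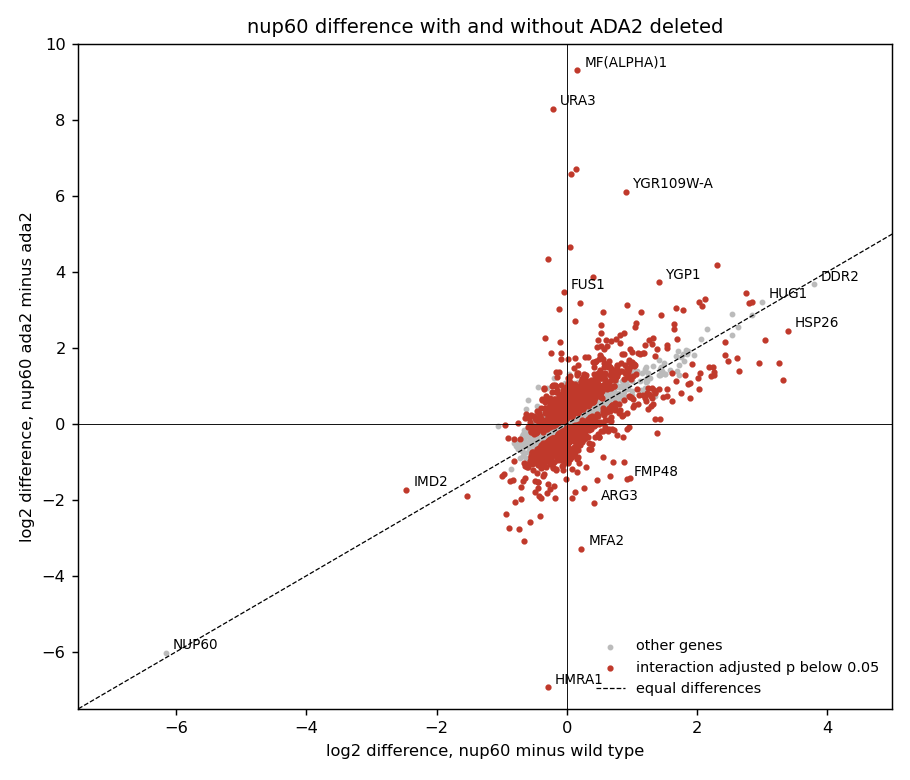
Change in nup60 ada2 against ada2 (y axis) plotted against the change in nup60 against wild type (x axis), both in log2, one point per gene, with red points for the 2134 genes whose interaction passed. DDR2 and HUG1 lie near the diagonal of equal change, and MF(ALPHA)1, URA3 and HMRA1 lie far from it.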

How the data were processed

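RNA was measured on Affymetrix yeast arrays, 3 for each of 4 groups set from GEO's sample titles. The deposited values were probe set intensities on a linear scale, made by the authors with RMA in Affymetrix Expression Console 1.1 (submitters' processing notes). The design had assumed log2 values, so log2 was taken here. Of 10928 probe sets, 213 controls, 1746 for another yeast, 3470 without a gene in the pairing table and 1 naming several genes were kept apart. The other 5498 stood for 5449 genes, the brightest probe set being used for 47 genes with several. Names came from a RefSeq table, and no genome sequence was used here, so a planned count of promoter motifs was not run.

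Group means were fitted to all 12 arrays with limma 3.58.1 in R 4.3.3 (8 residual and 2.58 prior degrees of freedom), with two-sided moderated tests and Benjamini-Hochberg adjustment at 0.05 within each comparison. A fold against a group below background is a bound, the other group's mean against that level. The 50 gene lists have counts and medians only. The members and lists were chosen with earlier results of these data known. Genes named were the deleted genes, their neighbours, marker and mating-type genes, the 15 largest rises and falls with groups that did not overlap, up to 4 members per list, 5 interactions each way, and all a-specific, alpha-specific and pyrimidine genes. The procedure was tested on simulated data. Alternatives are listed with their effect in the closing section, and 2 of the 24, leaving out both arrays with high spikes and cyclic loess, were chosen after seeing the data.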

Additional observations from a re-analysis of the deposited data

Results flagged for a closer look

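The change in nup60 ada2 against ada2 differed from that in nup60 against wild type in 2134 genes (limma interaction test, adjusted p below 0.05). The genes named for this difference were MF(ALPHA)1 (9.16), URA3 (8.50), HMLALPHA1 (6.57), MF(ALPHA)2 (6.53) and YGR109W-A (5.20) upward, and HMRA1 (-6.65), MFA2 (-3.51), ARG3 (-2.50), ARO10 (-2.42) and FMP48 (-2.38) downward, in log2. Strain differences in mating type and URA3 move with this contrast for every gene. Their part in these 2134 calls was not tested, those of ARG3, ARO10 and FMP48 included.

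Among 3470 probe sets with no gene in the pairing table, which the comparisons above leave out, 426 lay above background. Of these, 16 were raised at least 2-fold and 8 lowered at least 2-fold in nup60 ada2 against ada2. Their targets are not named here.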

How the results depend on the processing

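Values of nup60 ada2 against ada2 were recomputed under 24 alternatives, the interaction under all of them but the fit of only the groups compared, and chromosome medians only under the scalings and left-out arrays. No called change of a named gene in nup60 ada2 against ada2 reversed its sign under those run. Genes lowered at least 2-fold numbered 122 under quantile normalization, beside 79, and the largest absolute chromosome median was 0.10, beside 0.06. The total of changed genes lay between 3460 (without ada2 replicate 1) and 4049 (without wild-type replicate 1) when single arrays were left out, and that of the interaction between 1642 and 2160. Without both arrays that stood apart 4298 genes changed and 2634 passed the interaction, with array weights 4433 and 3010. The total changed was 3825 with an intensity trend, 3754 with robust moderation, 3745 without dim genes, 3763 with the mean of probe sets, 3713 without probe sets of shared sequence, 3694 with only the groups compared, 3809 under quantile normalization and 3712 under cyclic loess. With the replicate number as a block, 3620 genes passed (1863 up and 1757 down, and 1813 in the interaction), of which 3613 were calls of the unblocked fit in the same direction. Same-numbered arrays of both groups had correlations of 0.126, 0.046 and 0.140 between their deviations, against -0.126 to 0.049 for differently numbered arrays. The numbers were not taken as pairs in the main fit, and a shared effect of same-numbered arrays was not tested. Centring on the array median gave 1734 up and 2126 down. ADA2 (below background, 0.25 without nup60 ada2 array 3 and 0.24 without ada2 array 1), TFC3, ERP1 and PPR1 (0.22, without wild-type array 1) passed under some alternatives only. Control spikes were higher on all 3 nup60 ada2 arrays than on any ada2 array, most of all on array 3. Spike differences thus move with the groups compared, and genes below background in a group carry bounds only.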
